A study of Drosophila melanogaster with 7 samples.

Results

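Promoter-type RNA polymerase II was placed against the nucleosomes that mark active promoters in wing imaginal discs, the larval epithelial sacs of Drosophila from which the adult wing forms. The members were the peaks of polymerase phosphorylated at serine 5 of its C-terminal repeat (Ser5P) that had a peak of histone H3 trimethylated at lysine 4 (H3K4me3) within 2 kb, measured from edge to edge. They numbered 2613 of the 3732 Ser5P peaks (70.0%, 95% exact interval 68.5 to 71.5, range over the 5 chromosome arms 68.1 to 72.0), and the 6 lists of the series held 74390 peaks in all. The discs came from larvae of the third instar grown on standard medium, and the labels give no strain, genotype or treatment. Each of 6 targets had 1 chromatin immunoprecipitation and sequencing library, and 1 input library was not analysed here. The authors deposited only the start and end of each peak (dm3), so peak height and sequencing depth are unknown. With 1 library per target no test over samples was possible. The intervals below cover the counting of peaks only, and neighbouring peaks are not independent.

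Ser5P is the form of the polymerase at the start of a transcript, placed there by the kinase of the general factor TFIIH, and in Drosophila it is known at promoters where the enzyme pauses just after initiation. H3K4me3 marks the nucleosomes at and just downstream of active start sites and is written by Trithorax-type methyltransferase complexes, of which ASH2 is a subunit. H3K36me3 is laid down by Set2 behind the elongating polymerase, phosphorylated at serine 2 (Ser2P), along the bodies of transcribed genes. The nearest H3K36me3 peak was therefore used as a pointer: a Ser5P midpoint had a positive offset when it lay on that side of the H3K4me3 midpoint. No start sites entered, because no annotation of dm3 was used here, and the pointer is not a gene's measured direction.

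Ser5P peaks lay on H3K4me3 peaks far more than beside them. Of the 2613 members, 2159 overlapped their H3K4me3 partner (82.6%, 95% exact interval 81.1 to 84.1, arms 81.5 to 84.0), by a median of 688 bp. The midpoints were a median of 205.5 bp apart (95% interval of the median 188.5 to 223, arms 162 to 246). They were within 100 bp of each other in 34.3% of members and over 1000 bp apart in 12.7%. Among the overlapping pairs the median Ser5P peak was covered over 85.9% of its length (interquartile range 61.1 to 98.1) and the median H3K4me3 partner over 87.6% (61.3 to 98.2). In 784 pairs (36.3%) each peak covered at least 80% of the other, so these peaks were near copies of one another in position. The remaining 454 members lay apart from their partner at a median gap of 495 bp (interquartile range 243 to 1066). Members were wider than the Ser5P peaks without a partner, with medians of 782 and 545 bp, which bears on every share of peaks that overlap.

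The fit between the pair depended on the width of the Ser5P peak. Of peaks under 500 bp, 611 of 1077 were members (56.7%), compared with 1080 of 1541 peaks of 500 to 1000 bp (70.1%) and 922 of 1114 peaks over 1000 bp (82.8%). The narrow members overlapped their partner in 66.9%, covering a median of 46.3% of it, and 35.0% of those that overlapped lay wholly inside it. Those of 500 to 1000 bp overlapped it in 84.2% and were the best centred, with midpoints a median of 133 bp apart and within 100 bp in 43.1%. The wide members overlapped it in 91.2% and covered a median of 98.1% of it, and in 39.8% of the overlapping pairs the H3K4me3 peak lay wholly inside the Ser5P peak. Wider Ser5P peaks also had wider partners: the medians were 626, 795 and 1139 bp from the narrow to the wide class. The 95% intervals of the 3 classes did not overlap for the share of members or for the share of members that overlapped H3K4me3. A wider peak also has more length with which to meet a neighbour, and the part of width alone was not tested.

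The pointer could be read for 1954 members, 74.8% of the total, of which 2 had coinciding midpoints and were left out. The remaining 1952 Ser5P peaks sat almost on the H3K4me3 midpoint, with a small excess towards H3K36me3. The median signed offset was 24 bp (95% interval 13 to 33, interquartile range -102 to 210), and 1072 midpoints lay on the H3K36me3 side (54.9%, 95% exact interval 52.7 to 57.1). The share was 50.6% on X, 53.3% on 2L, 55.9% on 3R, 56.3% on 3L and 57.5% on 2R. The intervals of X and 2L included 50%, and those of the other arms did not. The excess was not distinguishable from an even split where H3K36me3 midpoints lay on 1 side only, with 52.5% (49.4 to 55.7) and a median offset of 14 bp (-2 to 27). The same held where they lay at least 1000 bp away, a setting added after seeing the data, with 51.4% (48.4 to 54.4) and 8 bp (-7.5 to 25.5).

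This small excess came from the wide Ser5P peaks. In the class over 1000 bp, 516 of 777 midpoints lay on the H3K36me3 side (66.4%, 95% exact interval 63.0 to 69.7), and the median offset was 68 bp (51.5 to 85.5). All 5 arms gave between 63.9 and 68.3%, and none of their intervals reached 50%. In the class of 500 to 1000 bp the share was 48.3% (44.7 to 51.8, arms 39.8 to 52.7) with a median offset of -4.5 bp (-13 to 8.5), and X was the arm whose interval, 31.3 to 48.9, lay below 50%. Narrow peaks had 45.5% on that side (40.5 to 50.5, arms 39.1 to 53.2) and a median offset of -37.25 bp (-71.5 to 2.5). The direction of these last 2 classes depended on where the pointer was anchored: with the H3K36me3 midpoint nearest to the Ser5P midpoint, the narrow class had 51.1% and 8 bp and the middle class 52.8% and 12.25 bp. The wide class had 71.3% and 93.5 bp in that setting. There the Ser5P position helps to choose the side, which by itself favours positive offsets in every class. Anchored at the H3K4me3 midpoint, the wide class exceeded the narrow one by 21.0 percentage points (95% Wald interval 15.0 to 26.9, arms 11.3 to 29.1) and the middle one by 18.1 points (13.3 to 23.0, arms 14.7 to 24.1). The middle and narrow classes differed by 2.81 points, with an interval of -3.22 to 8.84 that includes 0.

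**Figure D1:**
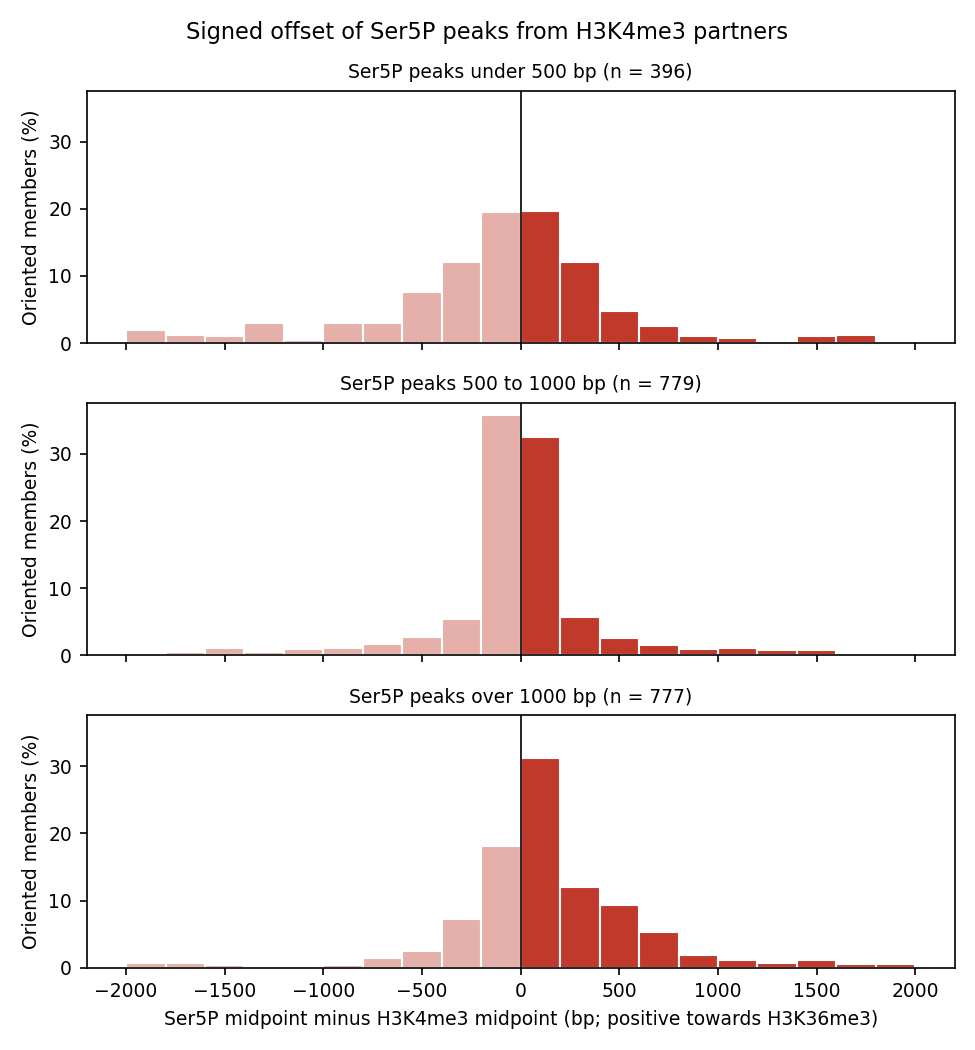
Signed offset of Ser5P midpoints from H3K4me3 midpoints in bins of 200 bp (x axis, bp, positive towards the nearest H3K36me3 midpoint) as a percent of the oriented members of each Ser5P width class (y axis). Offsets beyond 2000 bp are not drawn. The histogram is narrow and centred for peaks of 500 to 1000 bp, leans to the negative side for narrow peaks and to the positive side for wide peaks.

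In finer steps of width, the side was close to even up to 1000 bp and then moved. The share on the H3K36me3 side was 46.7% for Ser5P peaks under 300 bp (60 peaks), 45.2% from 300 bp, 48.9% from 500 bp and 47.7% from 700 to 1000 bp, and each of these intervals included 50%. It was 57.8% (95% exact interval 52.6 to 62.9) for peaks between 1000 and 1500 bp, 74.8% (68.5 to 80.3) for those from 1500 to under 2000 bp and 73.8% (135 of 183) for those of 2000 bp and more. The median offset of these last 3 steps was 25.5, 129 and 448 bp.

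**Figure D2:**
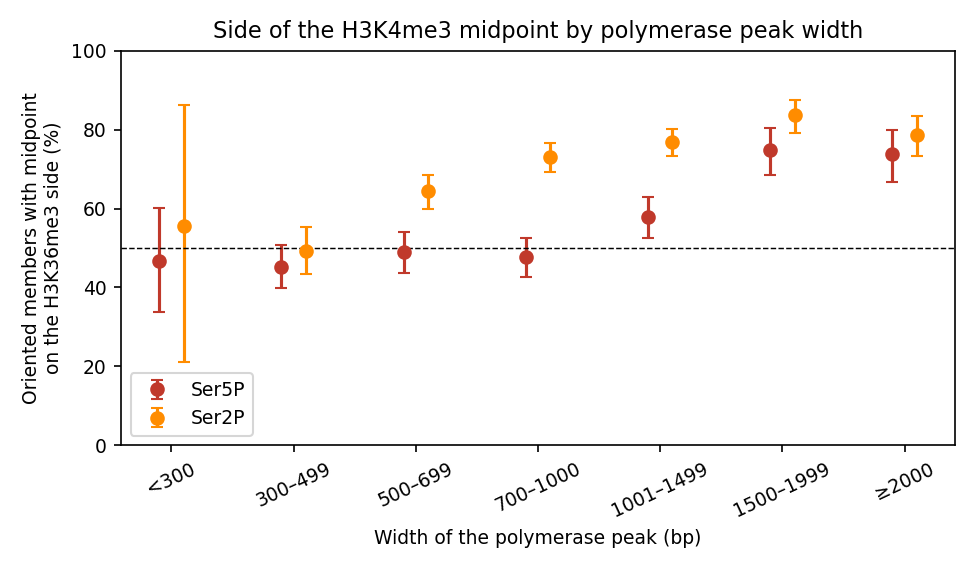
Share of oriented members with a midpoint on the H3K36me3 side of the H3K4me3 midpoint (y axis, percent) by width of the polymerase peak (x axis, bp) for Ser5P and Ser2P. Points are shares, bars are 95% exact intervals over peaks, and the dashed line is 50%. Ser5P leaves the line only above 1000 bp, where it stands at 57.8, 74.8 and 73.8%, whereas Ser2P is above it from 500 bp on.

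The edges showed where the extra length lay. At the edge away from H3K36me3, the overlapping wide Ser5P peaks ended close to their partner: they passed its edge by a median of 18 bp (95% interval 9 to 27), and 58.6% of the 710 pairs ended within 100 bp of each other there. At the edge towards H3K36me3 they passed the H3K4me3 edge by a median of 122 bp (101 to 152, interquartile range 8 to 550), and 39.6% ended within 100 bp. An overhang of more than 500 bp was found on the H3K36me3 side in 188 pairs (26.5%, 95% exact interval 23.3 to 29.9) and on the other side in 76 (10.7%, 8.53 to 13.2). These edges are those of 1 partner, and 70 of 922 wide members (7.59%) overlapped several H3K4me3 peaks. An overhang can therefore lie on another H3K4me3 peak, and how often it did was not tested. Peaks of 500 to 1000 bp stopped slightly short of the partner at both ends, which gives the edge distance a negative sign. Their medians were -25 bp on the H3K36me3 side and -23 bp on the other, and their edges fell within 100 bp of the partner's edge in 57.5% of pairs on the H3K36me3 side and 59.4% on the other. Narrow peaks also stopped short, with medians of -84 bp on the H3K36me3 side (-131 to -56) and -66 bp on the other (-84 to -42).

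**Figure D3:**
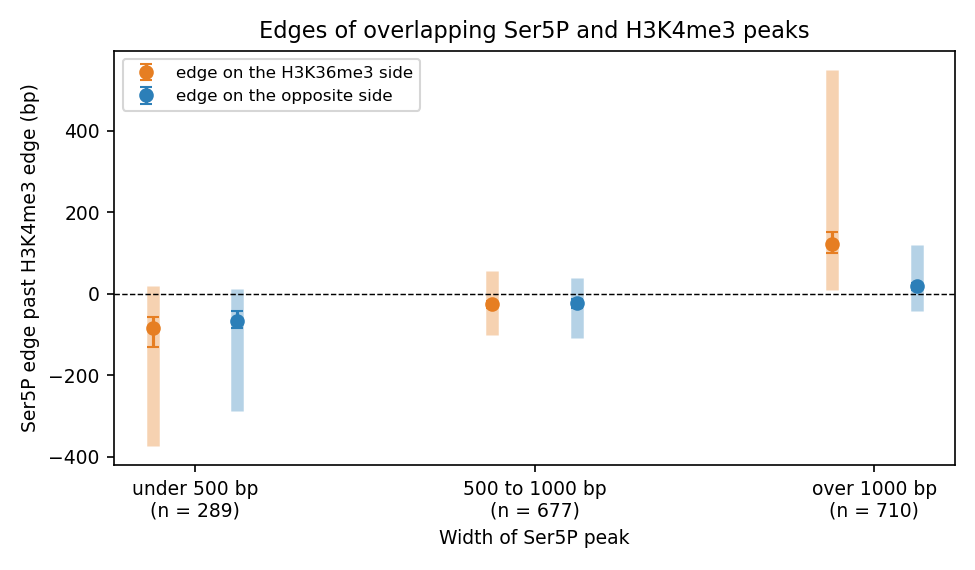
Distance by which the edge of an overlapping Ser5P peak passes the edge of its H3K4me3 partner (y axis, bp, negative where it stops short) at the end towards H3K36me3 and at the opposite end, by Ser5P width class (x axis). Points are medians with 95% intervals, and the pale bars are interquartile ranges. In the wide class the edge towards H3K36me3 reaches 122 bp past the partner and the opposite edge 18 bp.

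These values depended on how near the H3K36me3 peak was. Its midpoint lay a median of 722 bp from the H3K4me3 midpoint for wide members, 1398 bp for the middle class and 1590 bp for narrow ones. Among wide members, 68.8% were on the H3K36me3 side when that midpoint was up to 500 bp away, 80.2% (95% exact interval 73.5 to 85.9) from 500 to 1000 bp, 64.6% (57.0 to 71.6) from 1000 to 2000 bp and 45.9% (37.3 to 54.7) beyond 2000 bp. Both other classes lay to the opposite side at 500 to 1000 bp, with 29 of 80 middle members (36.3%, 25.8 to 47.8) and 7 of 45 narrow members (15.6%, 6.49 to 29.5) towards H3K36me3. Narrow members stood at 55.1% (46.7 to 63.3) beyond 2000 bp. With H3K36me3 midpoints of at least 1000 bp distance alone, a choice made after seeing the data, the wide and narrow classes had 56.5 and 51.3% on that side, and their difference of 5.13 points had an interval of -2.76 to 13.0, which includes 0. In the same subset the edges of wide peaks passed those of the partner by medians of 105.5 bp (69 to 155) towards H3K36me3 and 54 bp (25 to 74) on the other side, and by more than 500 bp in 26.5 and 15.9% of 264 pairs. H3K36me3 midpoints lay within 5 kb on both sides of the partner for 48.7% of oriented members, where the nearer one set the sign. Where they lay on 1 side only, the wide class had 60.9% on that side (55.6 to 66.0) and the narrow class 48.7% (42.2 to 55.3).

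The width of the partner also went with the side. The values here include members that lay apart from their partner. Among wide Ser5P peaks whose partner was above the median width of its list (844 bp), 69.0% of 670 lay towards H3K36me3 (95% exact interval 65.3 to 72.4). With narrower partners 50.5% of 107 did (40.6 to 60.3). Narrow Ser5P peaks with such wide partners lay towards H3K36me3 in 39.4% of 142 (31.3 to 48.0), at a median offset of -255 bp. With narrower partners they did so in 48.8% of 254 (42.5 to 55.1). Of the 396 narrow oriented members, 107 lay apart, at a median offset of -624 bp, and 289 overlapped, at -22.5 bp. With the pointer anchored at the H3K4me3 midpoint, short Ser5P midpoints beside wide H3K4me3 peaks thus lay mostly away from H3K36me3. Long ones lay mostly towards it. This split was not recomputed for overlapping pairs alone or with another anchor, and the part of the distance to H3K36me3 in it was not tested.

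Oriented members fell into 6 arrangements. The commonest was a Ser5P peak across the H3K4me3 edge on the H3K36me3 side, with 535 of 1952 (27.4%, 95% exact interval 25.4 to 29.4), and 390 crossed the opposite edge (20.0%, 18.2 to 21.8). A Ser5P peak lay inside its partner in 384 cases (19.7%) and enclosed it in 367 (18.8%). Another 131 lay apart on the H3K36me3 side and 145 apart on the other. In the middle class the crossings were even, at 208 and 207 of 779. In the wide class 245 of 777 crossed towards H3K36me3 and 109 away from it (31.5 and 14.0%), and 295 enclosed the partner (38.0%).

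**Figure D4:**
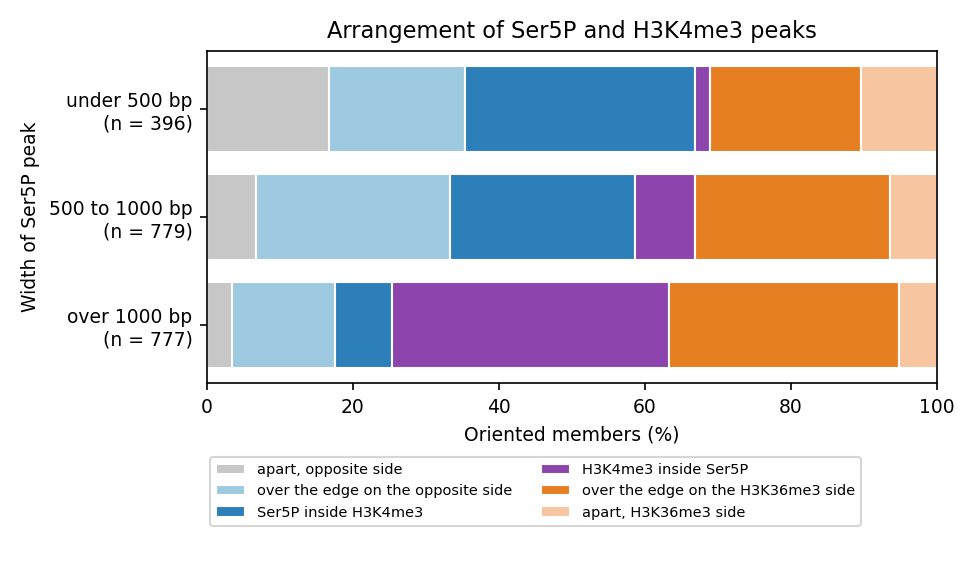
Share of oriented members (x axis, percent) in each arrangement of the Ser5P and H3K4me3 peaks, by Ser5P width class (y axis). Peaks inside H3K4me3 make up 31.6% of the narrow class and 7.85% of the wide class, and crossings of the edge are even between sides in the middle class.

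Single regions illustrate the classes. A wide member near the median offset of its side lay on 2R from 1905139 to 1906779 (1641 bp). It enclosed an H3K4me3 peak of 1144 bp, ended 14 bp past it at the end away from H3K36me3 and 483 bp past it at the other, and 92.1% of it lay under H3K36me3. A wide member on the opposite side, on 3L from 20778216 to 20779372, also enclosed its partner of 697 bp, and passed it by 395 bp away from H3K36me3 and by 65 bp towards it. These 2 peaks had their long overhang at opposite ends, and 92.1 and 0% of their length was covered by H3K36me3.

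A member of the middle class on 2R from 13307617 to 13308226 (610 bp) overlapped a partner of nearly the same length, 617 bp, over 83.6% of its own length. It was shifted by 103.5 bp towards an H3K36me3 peak whose midpoint lay 3462.5 bp away. Another, on 2R from 12158725 to 12159525, lay wholly inside its partner, with an edge distance of -2 bp on the side away from H3K36me3 and -164 bp on the other. A narrow member on 2R from 20448203 to 20448650 (448 bp) sat at the far end of an H3K4me3 peak of 1087 bp, 333.5 bp from its midpoint and away from H3K36me3, and covered 39.9% of it. All 3 were covered by ASH2 over their whole length and by no Ser2P peak.

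The 3 widest members all carried Ser2P over much of their length. The widest, on 2R from 15998577 to 16003697 (5121 bp), enclosed an H3K4me3 peak of 4630 bp, which was also the longest overlap of all members. It had no H3K36me3 midpoint within 5 kb, and H3K27me3, the mark of the Polycomb group, covered 69.0% of it and Ser2P 59.9%. The second, on 3R from 11156455 to 11161168 (4714 bp), covered 99.4% of a partner of 3482 bp and was covered by H3K36me3 over 92.4%, by Ser2P over 73.1% and by H3K27me3 over 0.445% of its length. It passed the partner by 1252 bp on the side opposite to the pointer. That overhang was not free of H3K36me3. The pointer peak ran from 11156492 to 11158710, so other H3K36me3 peaks covered most of the overhang. The third, on X from 6183652 to 6188237 (4586 bp), enclosed a partner of 2543 bp and passed it by 1596 bp towards H3K36me3 and by 447 bp at the other end. H3K36me3 covered 95.1% of it, Ser2P 87.3% and H3K27me3 16.5%. From the widest to the third, ASH2 covered 6.37, 52.5 and 14.6% of the peak.

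Members apart from their partner were narrower peaks, with a median of 529.5 bp against 852 bp for the overlapping ones. The gap was at most 500 bp in 50.4% of the 454. Of the 276 with a pointer, 131 lay towards H3K36me3 (47.5%, 95% exact interval 41.4 to 53.5). By class the share was 38.3% (29.1 to 48.2) for narrow, 49.0% (39.0 to 59.1) for middle and 59.7% (47.0 to 71.5) for wide peaks, and the last 2 intervals include 50%. Other targets differed in frequency between the 2 sides, which are themselves set by H3K36me3. ASH2 was present at 128 of 145 peaks on the side away from H3K36me3 (88.3%, 81.9 to 93.0) and at 98 of 131 towards it (74.8%, 66.5 to 82.0), with intervals that just meet. Ser2P was present at 30.3% (23.0 to 38.5) and 56.5% (47.6 to 65.1), and H3K36me3 itself at 9.66 and 46.6%. Their median widths were 524 and 650 bp. The order was the same in each width class: ASH2 was present away from and towards H3K36me3 at 90.9 and 78.0% of narrow, 88.5 and 76% of middle and 81.5 and 70% of wide peaks, and Ser2P at 12.1 and 26.8%, 32.7 and 56%, and 70.4 and 87.5%. The intervals overlapped between the sides in each of these pairs, which hold 27 to 66 peaks a side. The gap nearest below the limit was 1994 bp, at a peak of 200 bp on X from 6877630 to 6877829, and the nearest above it was 2019 bp, at one of 451 bp on 2R from 18571938 to 18572388. ASH2 covered 100 and 71.4% of these 2 peaks, and no Ser2P, H3K36me3 or H3K27me3 peak touched either.

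Ser5P peaks with an H3K4me3 partner differed from those without in the other targets. ASH2 was present at 92.7% of members (95% exact interval 91.6 to 93.7) and at 76.0% of the 1119 other Ser5P peaks (73.3 to 78.4). ASH2 here means the library with that label: its antibody's catalogue entry is one sold against an epitope tag, while no tagged strain is described. The presence of ASH2 was about the same in every width class of members, at 92.5, 93.7 and 91.6% from narrow to wide. Among the other Ser5P peaks it was 74.7, 82.6 and 63.0%. Presence needed only 1 bp, and the ASH2 list held 31582 peaks, against 5868 for H3K4me3 and 4828 for Ser2P. The level of the ASH2 shares is therefore not comparable with that of the other targets. Ser2P was present at 47.3% of members (45.4 to 49.3) and at 34.6% of the others (31.8 to 37.5), and the order differed between width classes. Among narrow peaks the members had less of it, 15.2% (12.5 to 18.3) against 23.6% (19.8 to 27.7), and among middle peaks they had more, 43.3% (40.4 to 46.3) against 31.0% (26.8 to 35.5). Among wide peaks the shares were 73.3% (70.3 to 76.1) and 69.8% (62.8 to 76.2), with overlapping intervals. H3K36me3 showed the widest gap over all widths, at 32.2% of members (30.4 to 34.1) and 4.11% of the others (3.03 to 5.44). Among wide peaks its shares were 62.4 and 20.3%. Among narrow peaks they were 4.42 and 0.215%, and there the gap of ASH2 was wider. H3K27me3 was rarer at members, at 8.84% (7.78 to 9.99) against 19.5% (17.2 to 21.9), and it was rarer in each class, at 3.27 against 11.6% for narrow and 14.2 against 31.3% for wide peaks.

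Members without an H3K36me3 midpoint within 5 kb had more H3K27me3 in every width class, and the wide ones had the most. H3K27me3 overlapped 62 of 144 such peaks (43.1%, 95% exact interval 34.8 to 51.6, arms 32.4 to 57.1), compared with 69 of 777 wide members that had a pointer (8.88%, 6.97 to 11.1, arms 0.704 to 26.5). Ser2P was present at 54.2% of the former (45.7 to 62.5) and 76.8% of the latter (73.7 to 79.8), and ASH2 at 91.7 and 91.8%. The peak widths were medians of 1301.5 and 1513 bp. The shares with H3K27me3 without and with a pointer were 6.98 and 1.26% among narrow members and 15 and 4.49% among middle ones. Wide Ser2P peaks chosen by the same rule showed a like split, 45.5% (33.1 to 58.2) and 5.90% (4.65 to 7.36). This is not a separate observation, since the lists of histone marks are the same and many regions are shared. A Ser5P peak overlapped 47 of the 66 wide Ser2P peaks without a pointer (71.2%) and 37.6% of the 1237 with one.

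Most H3K4me3 partners had a single Ser5P peak. The members shared 2320 H3K4me3 peaks, 39.5% of that list. Of these, 2063 were the partner of 1 Ser5P peak, 222 of 2, 34 of 3 and 1 of 4. In 168 of the 257 with several, Ser5P midpoints lay on both sides of the H3K4me3 midpoint. Narrow peaks shared a partner more often (27.7%, 95% exact interval 24.1 to 31.4) than wide ones (16.5%, 14.1 to 19.0). Seen from the polymerase, 949 members (36.3%) had H3K4me3 peaks within the 2 kb window, edge to edge, whose midpoints lay on both sides. That share was nearly equal in the 3 width classes, from 35.9 to 36.8%. In 67 of these 949 the Ser5P peak, with a median width of 519 bp, overlapped none of the flanking H3K4me3 peaks, and in 83 it overlapped more than 1, at a median width of 1758 bp.

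Profiles along the axis towards H3K36me3 placed the other targets around the pair. Each of the 1770 oriented partners was counted once, by its widest Ser5P peak. Around the 751 with a wide peak, Ser5P covered 75.2% at 500 bp away from H3K36me3 and 84.4% at 500 bp towards it. At 1000 bp the values were 24.1 and 39.7%. ASH2 was off centre in these regions: it was highest 400 bp on the side away from H3K36me3 (72.2%), and it covered 69.5% at 500 bp on that side and 33.4% at 500 bp on the other. Ser2P covered 38.7 and 56.6% at the same points. Around the 313 partners with only narrow peaks, Ser5P was highest 50 bp from the midpoint (46.6%), ASH2 100 bp away from H3K36me3 (81.8%), and Ser2P covered at most 20.8%, at 1350 bp towards H3K36me3. These profiles share their libraries and the pointer, and they are descriptions of peak lists and not of read density.

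**Figure D5:**
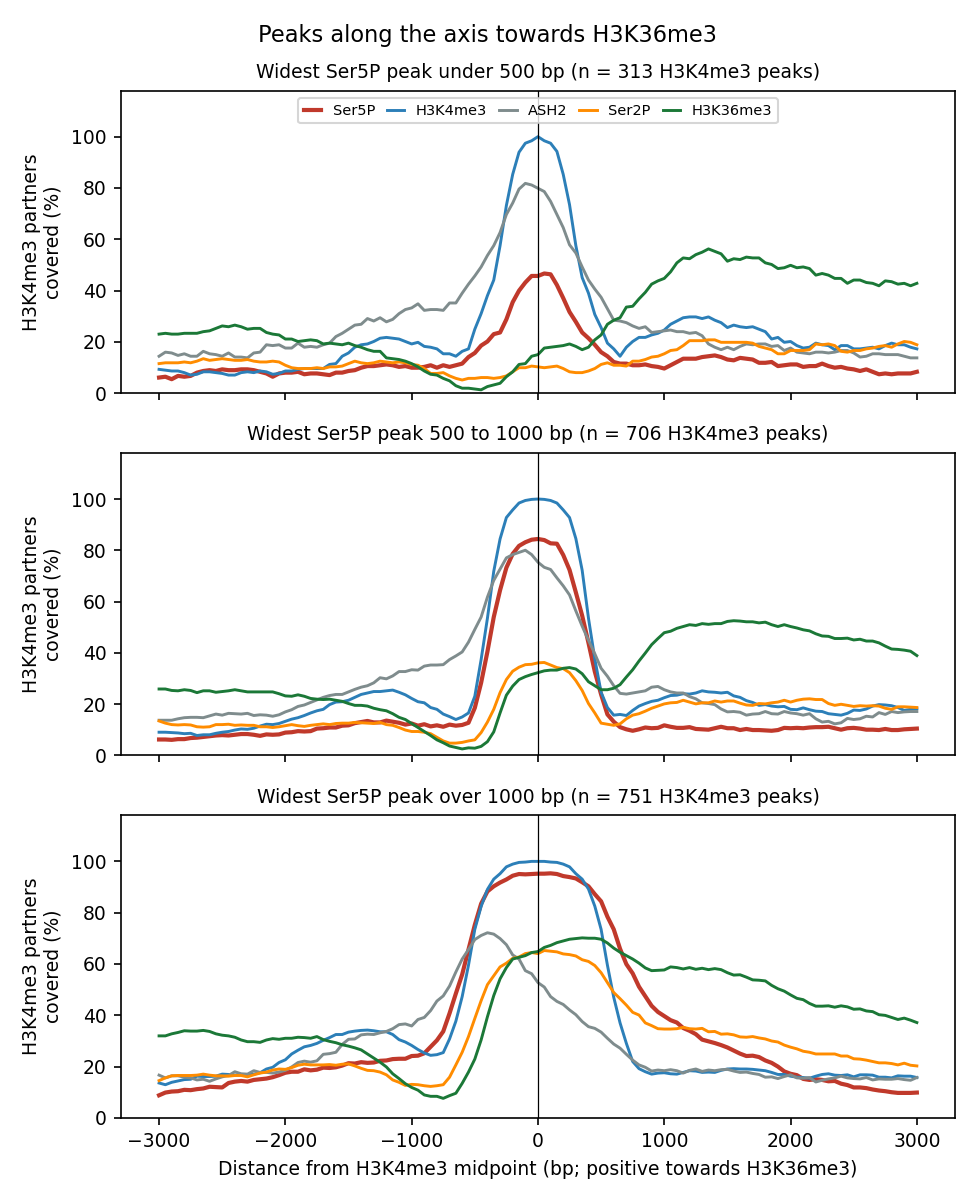
Share of oriented H3K4me3 partners covered by a peak of each target (y axis, percent) at each distance from the H3K4me3 midpoint (x axis, bp, positive towards H3K36me3), by width class of the widest Ser5P peak. In the wide class the Ser5P curve reaches farther towards H3K36me3 than away from it, and ASH2 is highest at 400 bp on the other side. H3K36me3 is on the positive side by choice of the axis.

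Set against Ser2P peaks treated in the same way, Ser5P was closer to H3K4me3 and less displaced. Of the 4828 Ser2P peaks, 2964 had an H3K4me3 peak within 2 kb (61.4%, 95% exact interval 60.0 to 62.8). Of those, 64.6% (62.9 to 66.4) overlapped it, at a median midpoint distance of 439 bp (405 to 471.5), against 82.6% and 205.5 bp for Ser5P members. Over all peaks, with or without a partner, 39.7% of Ser2P and 57.9% of Ser5P peaks overlapped H3K4me3. Ser2P midpoints lay on the H3K36me3 side in 71.6% of 2631 (69.9 to 73.4), 16.7 percentage points above Ser5P (95% Wald interval 13.9 to 19.5, arms 10.5 to 24.1). In the class of 500 to 1000 bp the difference was 20.9 points (16.5 to 25.4), in the wide class 12.7 points (8.63 to 16.7), and among narrow peaks 4.03 points with an interval of -3.52 to 11.6. A peak of either form could enter beside a partner of the other, which these intervals treat as independent.

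The edges separated the polymerase forms as well. Overlapping wide Ser2P peaks stopped short of the H3K4me3 edge away from H3K36me3 by a median of -74 bp (-84 to -68), where wide Ser5P peaks passed it by 18 bp. Towards H3K36me3 they passed it by 283 bp (221 to 369), where Ser5P passed it by 122 bp. On the 762 oriented partners that had exactly 1 peak of each form, the Ser2P midpoint lay nearer to the H3K36me3 side in 514 (67.5%, 95% exact interval 64.0 to 70.8, arms 64.1 to 71.9), by a median of 42 bp over all 762 (34 to 53). Their ends differed more at the back than at the front: Ser2P ended a median of 13 bp (4 to 18) beyond Ser5P towards H3K36me3, and at the other end the edge distance of Ser2P relative to Ser5P was -68.5 bp (-83 to -55), inside it.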

How the data were processed

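Chromatin of wing discs was immunoprecipitated and sequenced, with 1 library for each of 6 targets, per the labels. The authors deposited 1 list of peak positions per target in 3 columns (chromosome, start, end), without heights or scores. The genome build was dm3, per the submitters' processing notes. How reads were aligned and peaks found, and whether the input entered, were not given in the sources used here. A caller's threshold and the way it joins neighbouring pieces set peak widths, so the width classes are classes of these lists. Starts were raised by 1 bp for printing. Entries with the same start and end (2 in the H3K4me3 list and 306 in the ASH2 list) counted as 1 bp in overlaps.

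For each Ser5P peak the partner was the H3K4me3 peak with the smallest gap between edges, up to 2000 bp, and among overlapping ones the nearest midpoint. The sign came from the H3K36me3 midpoint nearest to the H3K4me3 midpoint, up to 5000 bp, so that the Ser5P position had no part in it. Overlap meant at least 1 bp. Shares have exact (Clopper-Pearson) and medians order-statistic 95% intervals. Differences of shares have Wald intervals. No p values were computed. Regions were named by a rule: those nearest the median offset of each side and class, the longest overlap and gap per class, the 3 widest members, and the gaps on either side of the limit. The members, classes and rule were chosen with earlier results of these data known. Genes and sequences are not given, since the annotation provided is of another release than dm3 and was not used. Python 3.11.15, pandas 2.3.3, scipy 1.17.1 and matplotlib 3.10.9 were used, and the functions were tested on simulated peaks.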

Additional observations from a re-analysis of the deposited data

How the results depend on the processing

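No paired analysis was possible because each target had 1 library. Leaving out a replicate was not possible for the same reason. Of 50 values recomputed under alternatives, 21 stayed within the 95% interval of the value reported, 29 left it and 0 changed sign. Shares with a partner, shares overlapping, distances and coverages cannot change sign. The last count therefore bears only on the share on the H3K36me3 side (crossing 50%), the signed offset and the class difference. That tally holds no offsets of single width classes, some of which did change sign. The narrow class went from -37.25 to 8 bp with the side taken from the Ser5P midpoint and to 8.5 bp with H3K36me3 at least 1000 bp away. The middle class went from -4.5 to 12.25 bp with the Ser5P midpoint, 4 bp with the point halfway and 109.5 bp for midpoints at least 100 bp apart. The last of these settings leaves out every offset under 100 bp in size, which by itself moves medians outward. The wide class stayed between 42.5 and 242.75 bp. With the wider 50% of the Ser5P and H3K4me3 lists, 62.8% of Ser5P peaks had a partner, 85.4% of members overlapped it, midpoints were 176.5 bp apart, 88.4% of the Ser5P and 95.7% of the H3K4me3 peak were covered, 61.5% lay on the H3K36me3 side and the offset was 42.5 bp. That setting holds no narrow class, so it gave no difference between classes. With partners by midpoint the first 2 shares were 67.4 and 85.8%, and with a 1000 bp window they were 66.6 and 86.8% with midpoints 183.5 bp apart. With partners of a single Ser5P peak, 55.3% of peaks remained as members, 90.4% overlapped, midpoints were 150.5 bp apart and 89.0% of the H3K4me3 peak was covered. An overlap of at least 50% of the Ser5P peak was met by 70.1% of members. With the side taken from the Ser5P midpoint, the share on the H3K36me3 side and the offset were 59.8% and 45 bp. They were 57.9% and 35.5 bp from the point halfway, and 58.0% and 138 bp for midpoints at least 100 bp apart. The Ser5P and halfway anchors let the Ser5P position help to choose the side, which favours positive offsets. The last setting drops the small offsets, as said above. With H3K36me3 on 1 side only the share was 52.5% (interval 49.4 to 55.7) and the difference between wide and narrow classes 12.2 points, and with H3K36me3 midpoints within 2000 bp that difference was 31.0 points. With H3K36me3 midpoints at least 1000 bp away, added after seeing the data, the share was 51.4% (48.4 to 54.4), the offset 8 bp (-7.5 to 25.5) and the difference 5.13 points. The causes were not tested. Without peak heights or reads, depth could not be weighed, and absence from a list does not show that a target was missing.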

Other observations

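H3K4me3 peaks that were the partner of a Ser5P peak differed from the 3548 that were not. Partners were slightly wider, with medians of 880.5 and 821 bp. ASH2 was present at 93.4% of partners and 80.2% of the others, and Ser2P at 45.4 and 23.4%. H3K36me3 went the other way, at 36.9% of partners and 51.6% of the others. H3K27me3 was present at 8.84 and 7.44%. These shares count peaks of 1 library per target and were not tested.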
